A study of Mus musculus with 6 samples.

Results

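Peaks of the transcription factor ATF3 whose nearest annotated gene was an olfactory receptor (Olfr) or a vomeronasal receptor (Vmn1r or Vmn2r) were collected from 6 peak lists of mouse bone marrow-derived macrophages (BMDMs). The choice used the gene name alone and no tag value. It gave 349 of 16759 peaks, assigned to 82 genes, of which 48 were Olfr, 14 Vmn1r and 20 Vmn2r genes. Overlapping peaks of different lists were joined into 171 sites.

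Each condition had 1 WT and 1 knockout (KO) library, from C57BL/6 mice (Atf3 +/+) and ATF3-deficient mice (Atf3 -/-). Marrow of mice aged 6 to 8 weeks was grown with M-CSF at 40 ng/ml into BMDMs, which are primary macrophages. The 3 conditions were medium alone (unstimulated), HDL at 2 mg/ml over 6 h, and the same HDL followed by CpG, a DNA ligand of Toll-like receptor 9, at 100 nM over 4 h (HDL + CpG). The immunoprecipitation used 2.5 µg of a rabbit polyclonal antibody to ATF3. Every library pooled 3 biological replicates before alignment, so the lists hold no measure of how mice differ. The interval of each WT/KO ratio covers the counting error of reads alone. Intervals of shares and of medians are taken over peaks as if independent, although many come from a single stretch of repeated sequence. The KO library shows what the antibody recovers without ATF3.

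Olfactory receptors are G-protein-coupled receptors that bind odorants in the nose, and vomeronasal receptors detect pheromones in the vomeronasal organ. Their genes lie in large clusters of similar copies, each sensory neuron expresses very few of them, and in other cell types the clusters are mostly silent and packed in heterochromatin. Macrophages are not known as a main site of their use. ATF3 is a basic leucine zipper factor induced by stress and by Toll-like receptors, and its family binds AP-1 and CRE sequences.

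A peak called on the WT library alone is here a standard peak. It counts as kept where a KOIN-corrected peak of the same condition overlaps it by at least 1 bp, and otherwise as removed. KOIN-corrected peaks were called on WT against KO, without peaks shared with those of the KO library, and filtered for a WT/KO ratio of 2. Tags are the reads in a peak scaled to a library of 10000000 reads. Libraries held between 37137377 and 75534584 reads, with 2.03, 1.74 and 0.960 KO reads per WT read in unstimulated, HDL and HDL + CpG cells. The gene Atf3 had a standard peak at its start site in all 3 conditions, with WT/KO ratios of 1.73, 1.81 and 1.97, and that peak does not check the deletion. Standard peaks lay at 3, 6 and 4 of 10 genes that mark macrophages (Cd68, Csf1r, Itgam and others), and 1 of 3, 4 of 7 and 5 of 5 such peaks were kept, where 20.7%, 54.9% and 29.7% of all standard peaks were.

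Sequences of 4 types are shown, because the peaks described below carry them. The first type is the AP-1 sequence TGACTCA, read on either strand (TGAGTCA on the other), within 100 bp of the peak centre. It stood in the KOIN-corrected peaks assigned to Olfr432 (chr1:175983282-175983318, minus strand, in both stimulated conditions), Olfr1444 (chr19:12908281-12908317, plus strand, HDL + CpG) and Olfr552 (chr7:109746115-109746151, minus strand, HDL). Capitals mark the AP-1 sequence, 5′ to 3′, mm9.
Olfr432: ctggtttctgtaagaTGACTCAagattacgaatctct
Olfr1444: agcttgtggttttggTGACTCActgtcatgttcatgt
Olfr552: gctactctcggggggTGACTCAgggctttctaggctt

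The second type is a run of the dinucleotide TC (GA on the other strand), which 9 of the 16 receptor peaks kept with HDL contained over at least 24 bases. Of all 2919 standard peaks kept with HDL, 571 contained such a run. The longest uninterrupted TC runs among kept receptor peaks were 78 bases beside Olfr677 (chr7:112202277-112202366) and 60 bases beside Vmn2r104 (chr17:20121586-20121665), here in capitals on the plus strand.
Olfr677: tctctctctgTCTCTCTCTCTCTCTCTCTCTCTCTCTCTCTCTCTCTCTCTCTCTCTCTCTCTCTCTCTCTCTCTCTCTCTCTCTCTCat
Vmn2r104: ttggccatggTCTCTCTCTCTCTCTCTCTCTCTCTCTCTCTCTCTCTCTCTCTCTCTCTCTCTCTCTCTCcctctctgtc

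The third type is a GC-rich start site of the authors' annotation, found at Vmn2r29. Around the peak centre (chr7:7230873-7230972, plus strand) 11 CG dinucleotides, in capitals, stood in 100 bases.
Vmn2r29: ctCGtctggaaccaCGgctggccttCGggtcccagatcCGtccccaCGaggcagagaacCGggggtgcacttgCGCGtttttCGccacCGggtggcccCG

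The fourth type is sequence that recurs many times on chromosome X around Vmn2r121. The 60 bases at the centre of 1 such peak (chrX:121578071-121578130, plus strand) occurred 8 times in the reference genome, 6 of them within the stretch of peaks assigned to this gene.
Vmn2r121: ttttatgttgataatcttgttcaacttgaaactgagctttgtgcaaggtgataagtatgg

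Receptor genes took 3.31% of the standard peaks in unstimulated cells (92 of 2779), 2.12% after HDL (113 of 5319), and 2.96% after HDL + CpG (112 of 3790). Positions spread every 10 kb over the genome had a receptor gene as their nearest gene in 2.22% of cases, while receptor genes made up 7.46% of annotated genes. Without the single gene Vmn2r121, described below, the shares of standard peaks were 1.72%, 1.33% and 1.58%. The share of the positions includes Vmn2r121 and rests on GENCODE protein-coding and receptor genes. Peaks carry the nearest gene of the authors' annotation, so the shares of peaks and positions are not like for like. Most receptor peaks were annotated as intergenic, with 88, 105 and 106 of them, while 3, 5 and 4 were intronic and 0, 3 and 1 were in promoters. The median distance to the start site was 134, 40.7 and 105 kb in unstimulated, HDL and HDL + CpG cells.

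The KO signal was close to the WT signal at most receptor peaks. In unstimulated cells 4 of 92 receptor peaks were kept (4.35%, Wilson 95% interval 1.70 to 10.7), where 20.7% of all standard peaks were. With HDL 16 of 113 were kept (14.2%, 8.91 to 21.8), beside 54.9% of all, and with HDL + CpG 6 of 112 (5.36%, 2.48 to 11.2), beside 29.7%. The median WT/KO ratio of receptor peaks was 1.07, 1.13 and 0.997 in the 3 conditions, and that of all standard peaks 1.66, 2.41 and 1.42. A ratio of 2 or more was found at 6 unstimulated receptor peaks (6.52%, all peaks 31.3%), 28 HDL peaks (24.8%, all 66.6%) and 7 HDL + CpG peaks (6.25%, all 34.7%).

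When WT and KO reads of each peak were compared by a two-sided exact binomial test, adjusted by Benjamini-Hochberg over all standard peaks of a condition at 0.05, more WT reads were found at 21, 38 and 14 receptor peaks, 22.8%, 33.6% and 12.5% of them. Over all standard peaks these shares were 56.2%, 79.5% and 40.9%. More KO than WT reads were found at 2 of 92, 7 of 113 and 8 of 112 receptor peaks, against 0.900%, 0.902% and 2.85% of all peaks. The test compares 2 pooled libraries and not replicated conditions.

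**Figure D1:**
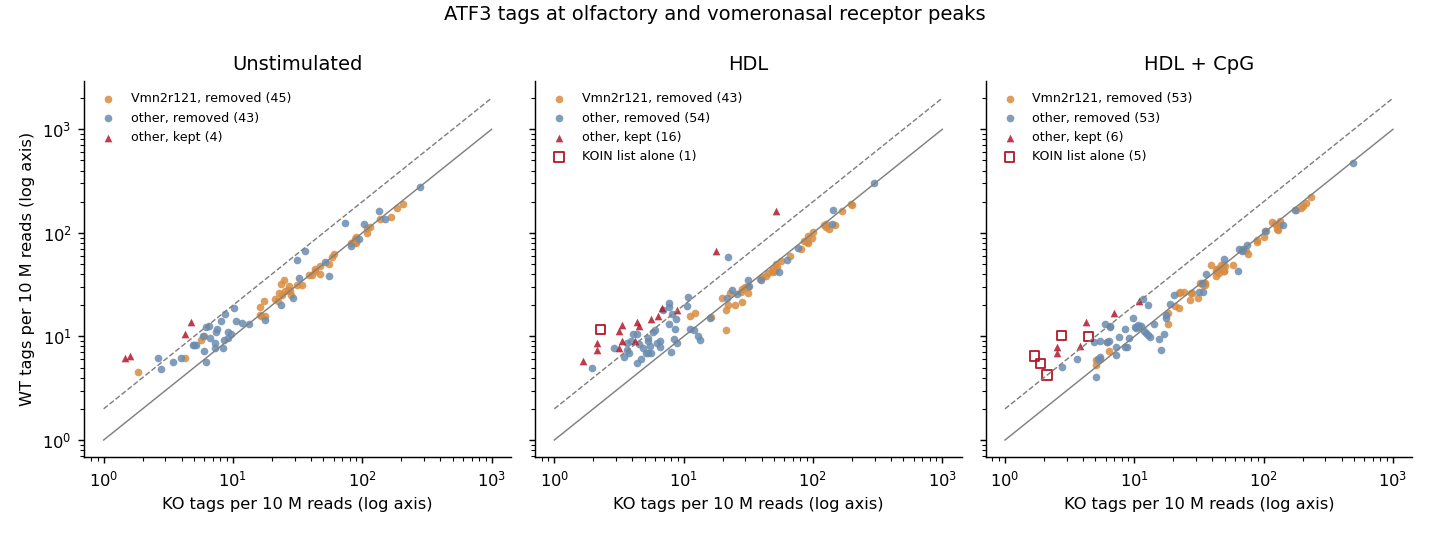
WT against KO normalised tags (log axes) at each receptor peak, 1 panel per condition, with a solid line at equal tags and a dashed line at a WT/KO ratio of 2. The Vmn2r121 peaks follow the solid line up to 222 WT and 233 KO tags. The kept peaks lie at or above the dashed line, which is the limit of the KOIN filter.

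A single gene held a large part of the set. Vmn2r121, a vomeronasal receptor gene, was the nearest gene for 45, 43 and 53 standard peaks in unstimulated, HDL and HDL + CpG cells, at 64 sites. These sites spanned 1.54 Mb of chromosome X (chrX:120742300-122277597, mm9), from 1027 kb upstream to 506 kb downstream of the annotated start site, and 122 of the 141 standard peaks lay over 100 kb from it. The GENCODE annotation has 10 protein-coding genes and 8 pseudogenes in this stretch, and the name Vmn2r121 marks the nearest gene of the authors' annotation. No Vmn2r121 peak was kept, with 0 of 45, 0 of 43 and 0 of 53.

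At the 31 Vmn2r121 sites with a standard peak in all 3 conditions, the WT and KO libraries had nearly the same level, scaled to peak width. In unstimulated cells the median was 18.4 tags per kb in the WT library and 18.2 in the KO library. With HDL it was 19.7 and 21.1, and with HDL + CpG 18 and 19.1. All 6 libraries thus had a median between 18 and 21.1 tags per kb at these sites, with or without ATF3. The WT/KO ratio there ranged from 0.857 to 1.4 in unstimulated cells, from 0.75 to 1.38 with HDL and from 0.737 to 1.26 with HDL + CpG.

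**Figure D2:**
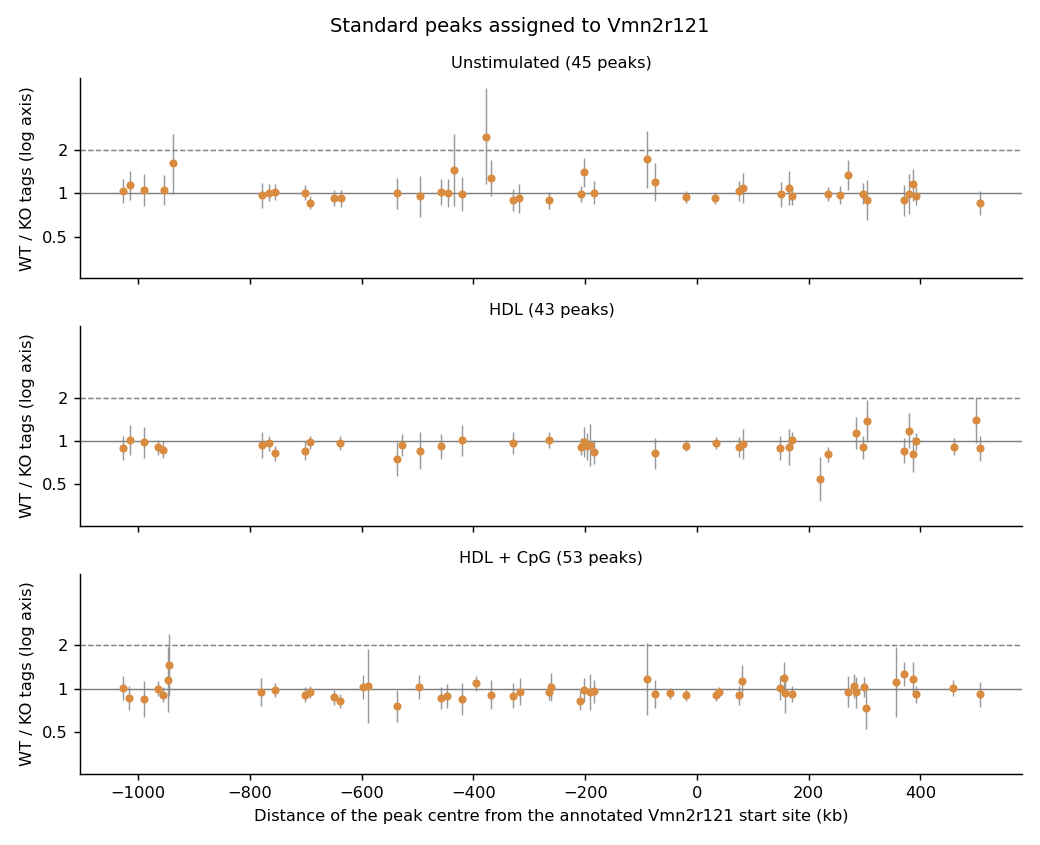
WT/KO ratio (log axis) of each standard peak assigned to Vmn2r121 against the distance of its centre from the annotated start site in kb, with exact 95% intervals of counting error. In each condition the peaks line up along a ratio of 1 over the whole stretch, and 1 unstimulated peak, at 2.47, lies above the dashed line at 2.

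Vmn2r121 peaks were wide, with median widths of 2269, 2509 and 2856 bp against 779, 763 and 786 bp over all standard peaks. The median share of 51-base windows, the size set for tags in the authors' peak calling, that occur once in the genome was 0% in each condition, where it was 90.7%, 96.3% and 94.7% over all peaks. A median window of these peaks occurred 8 times in the genome. In the unstimulated list a peak of the stretch (start 121576410) shared 2751 distinct windows with a smaller peak 698371 bp away, which were 100% of the windows of the smaller peak. The levels of the larger one were 49.8 WT and 55.3 KO tags. The Bowtie options that the study lists set no limit on how many places a read may match, and the study kept each read's best-scoring position. Reads of identical copies therefore cannot be told apart. The LINE class held 15, 15 and 17 of the Vmn2r121 peaks.

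Peaks assigned to other genes in the same 3 Mb window of chromosome X had similar values. None of 36, 39 and 40 was kept, and their median ratios were 1.02, 0.990 and 0.956.

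Without Vmn2r121, the kept share was 8.51% in unstimulated cells (4 of 47 peaks), 22.9% after HDL (16 of 70), and 10.2% after HDL + CpG (6 of 59). The median WT/KO ratio was then 1.34, 1.81 and 1.12. Intergenic receptor peaks outside Vmn2r121 were kept in 4.65%, 21% and 9.43% of cases, and intergenic peaks of all other genes in 16.7%, 51.7% and 24.3%.

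Receptor peaks in unique sequence had higher ratios. Among the receptor peaks with at least 90% unique windows, none of which was assigned to Vmn2r121, the median WT/KO ratio was 1.72 in unstimulated cells (14 peaks) and 2.45 with HDL (23 peaks). Over all standard peaks of that kind it was 1.91 and 2.61. With HDL + CpG it was 1.13 (18 peaks), beside 2.03 over all. Receptor peaks outside Vmn2r121 with fewer unique windows had medians of 1.21, 1.4 and 1.08. With HDL 15 of the 23 reached a ratio of 2 (65.2%, all unique peaks 76.7%), and 7 of the 23 were kept (30.4%, all 64.5%). The part of unique sequence in the low ratio of receptor peaks was not tested beyond these values.

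**Figure D3:**
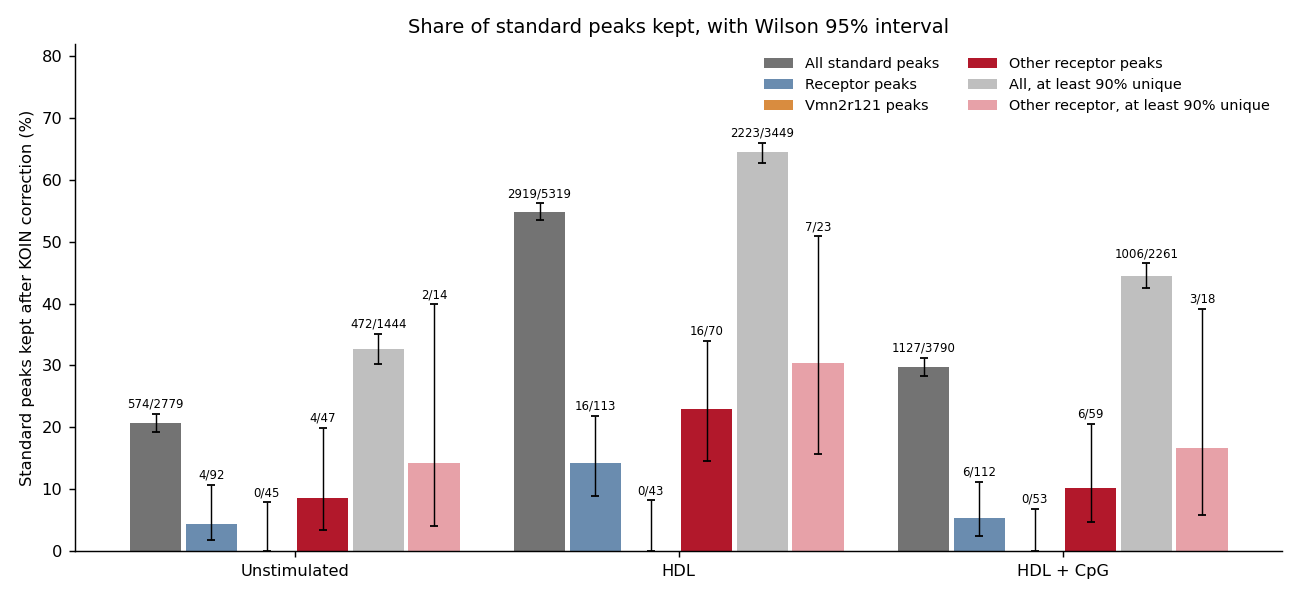
Share of standard peaks kept after KOIN correction in percent, per condition, for all peaks, receptor peaks, Vmn2r121 peaks, other receptor peaks, and the last and all peaks with at least 90% unique windows, with Wilson 95% intervals and counts above the bars. Receptor bars are lower than the bars of all peaks in each condition, and the Vmn2r121 bars are at 0.

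In unstimulated cells the 4 kept receptor peaks were those of Olfr1200, Olfr558, Vmn2r29 and Olfr646. At the peak 7.61 kb upstream of Olfr1200, WT tags were 6.19 and KO tags 1.46, which gave 4.25 (exact 95% interval 1.99 to 9.66). The peak in the only intron of Olfr558, 0.870 kb from its start site, had 6.46 and 1.59 tags, which gave 4.07 (1.96 to 8.93). Both were low peaks with intervals that reached below 2. The peak 2.60 kb upstream of Olfr646 had 10.5 and 4.24 tags, which gave 2.48 (1.51 to 4.09), and overlapped the transcript 4930516K23Rik in GENCODE.

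Vmn2r29 was 1 of 2 sites with a KOIN-corrected peak in 2 conditions. Its peak covered the start site and the first exon of a non-coding transcript of the gene in the authors' annotation. The KOIN-corrected peaks there overlapped no gene of the GENCODE annotation. The site had 13.7 WT and 4.77 KO tags in unstimulated cells, 13.7 and 4.39 with HDL, and 11.7 and 8.42 with HDL + CpG. The WT library was above the KO library in each condition, with ratios of 2.88 (1.84 to 4.54), 3.12 (1.95 to 5.10) and 1.39 (0.915 to 2.14), and the last was removed. The ratio of observed to expected CG dinucleotides was 0.766, 0.781 and 0.801 in the 3 peaks. The median over the other 314 receptor standard peaks was 0.131, and 5 of them reached 0.6.

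HDL gave the most kept receptor peaks, and these included the strongest. The peak 3.54 kb downstream of the Olfr806 start site (chr10:129172096-129172776) had 125 WT and 73.3 KO tags in unstimulated cells, 163 and 51.8 with HDL, and 104 and 103 with HDL + CpG. WT tags were highest and KO tags lowest with HDL, so that the ratio was 1.71 (1.51 to 1.94), 3.14 (2.75 to 3.60) and 1.01 (0.890 to 1.14). The peak 15.5 kb from Olfr410 (chr11:74132805-74133570), which overlapped the 5S ribosomal RNA gene n-R5s71, had 67.0 and 36.3, 66.7 and 17.7, and 43.1 and 63.1 tags in the same order. Its WT tags were nearly equal in unstimulated and HDL cells, while its KO tags were lowest with HDL and highest with HDL + CpG. The ratio was 1.85 (1.55 to 2.2), 3.77 (3.01 to 4.73) and 0.682 (0.569 to 0.815). Both peaks were kept with HDL alone.

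The other kept HDL peaks were lower, between 5.80 and 19.0 WT tags. The highest ratio among them was at Vmn2r56, with 8.70 WT and 2.12 KO tags (4.11, 2.14 to 8.30), and Olfr677 followed with 12.9 and 3.33 tags (3.88, 2.30 to 6.74). The peak at Olfr1200, 0.598 kb upstream of the start site and annotated as its promoter, had 11.3 and 3.18 tags (3.57, 2.07 to 6.33). It was not the site found in unstimulated cells, which lay 7.61 kb upstream of the same gene. Vmn1r213 had a kept peak 1.08 kb upstream, with 8.96 and 3.33 tags (2.69, 1.53 to 4.83), and Vmn2r91 one in its first intron, with 7.65 and 3.18 tags (2.41, 1.32 to 4.44). The lowest of the kept ratios was at Olfr449, with 17.9 and 8.93 tags (2.01, 1.4 to 2.89). Vmn2r91 lay in fewer unique windows (64.0%) than Vmn1r213 (95.3%). The remaining kept peaks, at Olfr24, Olfr180, Olfr346, Olfr432, Olfr951, Olfr1461 and Vmn2r104, had ratios from 2.11 to 3.48.

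Of the 16 receptor peaks kept with HDL, 10 lay on simple repeats or low-complexity sequence. Outside Vmn2r121, 10 of 22 receptor peaks on such sequence were kept with HDL (45.5%), where 55.8% of all peaks of that class were. With HDL + CpG it was 1 of 11 (all 2.69%) and in unstimulated cells 1 of 9 (all 13.2%). LINE elements carried 0 of 11 kept receptor peaks with HDL (all 26.6%), and LTR elements 2 of 16 (all 33.7%). An uninterrupted GA or TC run of 24 bases or more was present in 21 of 70 receptor peaks outside Vmn2r121 with HDL, of which 9 were kept (42.9%), and 7 of the 49 without such a run were kept (14.3%). Over all HDL peaks these shares were 56.8% with a run and 54.4% without. With HDL + CpG none of 11 receptor peaks with a run was kept, and 5.41% of all peaks with one were.

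In the HDL list 1 KOIN-corrected receptor peak had no standard counterpart, the one 6.75 kb upstream of Olfr552 (chr7:109745712-109746537), with 11.6 WT and 2.27 KO tags. Its ratio of 5.11 (2.79 to 9.88) was the highest of all receptor peaks in the 6 lists. It carried the AP-1 sequence printed above, 6 bp from its centre, in fully unique sequence, and lay 32.1 kb upstream of Trim21, which encodes a ubiquitin ligase and cytosolic antibody receptor.

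**Figure D4:**
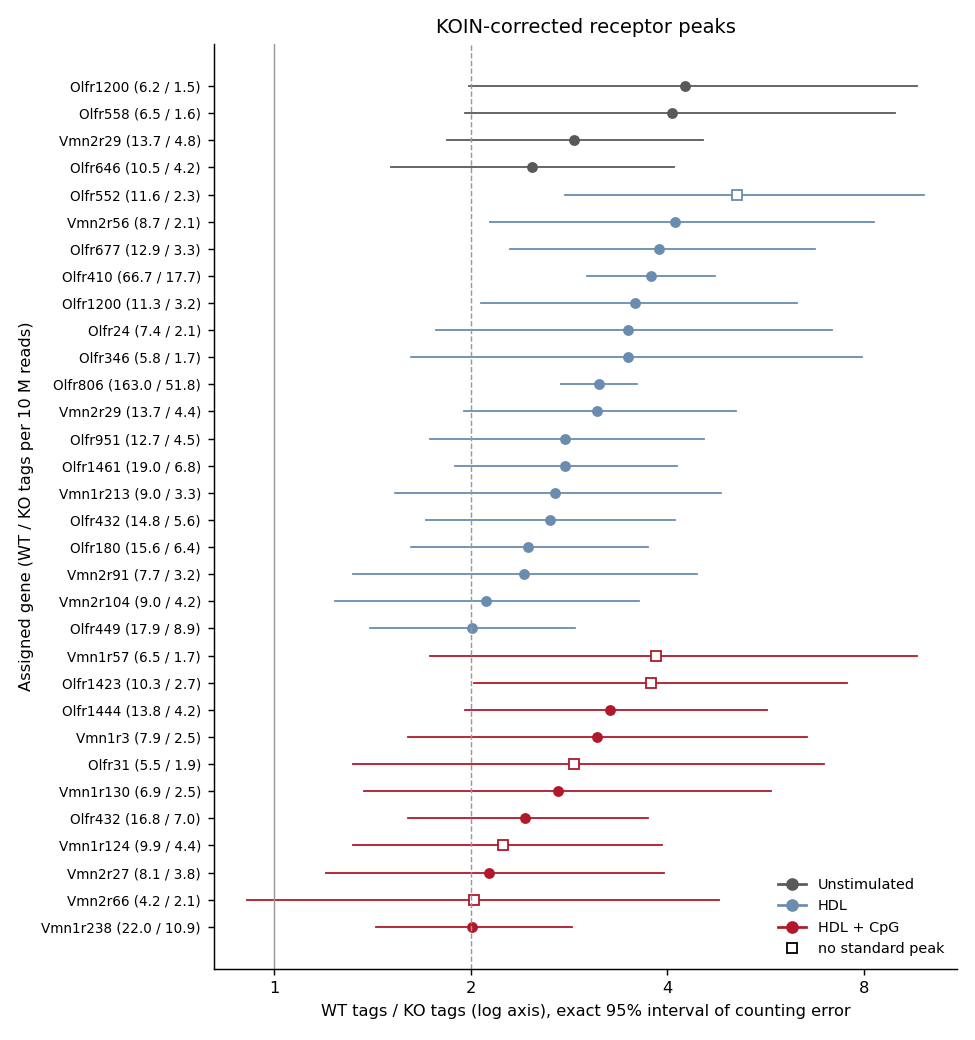
WT/KO ratio (log axis) with exact 95% interval of counting error for the 32 KOIN-corrected receptor peaks, labelled with the gene and its WT and KO normalised tags, coloured by condition. Open squares mark the 6 peaks without a standard peak, the dashed line is a ratio of 2, and the intervals of the 2 high peaks, Olfr806 and Olfr410, are the narrowest.

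With HDL + CpG 11 KOIN-corrected receptor peaks were present, 5 of them without a standard peak. The peak at the end of the gene Lpxn (chr19:12907905-12908735), which encodes the adhesion adaptor leupaxin of blood cells, was assigned to Olfr1444 as the nearest start site, 27.9 kb away. It had 13.8 WT and 4.21 KO tags (3.27, 1.96 to 5.68) and carried the AP-1 sequence 24 bp from its centre. The Olfr432 site, 2.81 kb downstream of that start site and 21.4 kb upstream of Ifi205, an interferon-inducible gene, was the other site found in 2 conditions. It had 14.8 WT and 5.60 KO tags with HDL (2.64, 1.71 to 4.11), and 16.8 and 6.95 with HDL + CpG (2.42, 1.60 to 3.73), so the intervals overlapped.

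The other HDL + CpG peaks were found at varied distances from other genes. A peak 48.4 kb upstream of Cd163, the haemoglobin scavenger receptor of macrophages, was assigned to Vmn2r27 and had 8.09 WT and 3.79 KO tags (2.13, 1.2 to 3.95). A peak 30.3 kb upstream of Il3ra, a chain of the interleukin-3 receptor, was assigned to Olfr31, with 5.46 and 1.89 tags (2.88, 1.32 to 6.96). A peak 40.3 kb from Osbp, which encodes an oxysterol-binding protein, was assigned to Olfr1423 and had 10.3 and 2.74 tags (3.77, 2.02 to 7.55). The highest ratio of the condition, 3.84 (1.73 to 9.65) at Vmn1r57, rested on 6.47 WT and 1.68 KO tags. The lowest, 2.01 and 2.02, were at Vmn1r238 and Vmn2r66, and the interval at Vmn2r66 (0.909 to 4.80) included 1. Vmn1r3, Vmn1r124 and Vmn1r130 had ratios of 3.12, 2.24 and 2.72. At these last 6 peaks the nearest named protein-coding gene other than a receptor was between 82.5 and 1449 kb away. Over all 32 KOIN-corrected receptor peaks, 12 had the start site of such a gene within 50 kb, and the median distance was 157 kb. Genes with provisional names, such as Gm numbers or names that begin with a digit, were left out of this search and may lie nearer.

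A ratio of 2 or more did not always mean that a peak was kept, among receptor peaks or all peaks. Over all standard peaks, 869, 3544 and 1315 reached that ratio in unstimulated, HDL and HDL + CpG cells. Of all standard peaks at any ratio, 574, 2919 and 1127 were kept. With HDL 12 of the 28 receptor peaks at a ratio of 2 or more were removed, all 12 with more WT reads in the binomial test. The strongest was in the last intron of Vmn2r77, with 54.7 WT and 31.5 KO tags in unstimulated cells, 59.1 and 22.2 with HDL, and 40.2 and 35.6 with HDL + CpG. Its ratio with HDL was 2.65 (2.15 to 3.29), and its WT tags were above its KO tags in each condition. Olfr243, with 24.2 and 10.9 tags (2.23, 1.62 to 3.07), Olfr750, with 21.1 and 7.72 (2.73, 1.9 to 3.96), and Vmn2r87, with 19.2 and 7.72 (2.49, 1.72 to 3.64), were further removed HDL peaks. In unstimulated cells 2 of 6 such peaks were removed, Olfr685 (2.34) and 1 Vmn2r121 peak (2.47), and with HDL + CpG 1 of 7, Vmn2r9 (2.23). No kept receptor peak had a ratio under 2, which the KOIN filter at that ratio largely fixed in advance. The peaks nearest below 2 were Olfr161 (1.99) and Olfr1507 (1.95) in unstimulated cells, another Olfr161 peak (just under 2.00) and Olfr804 (1.92) with HDL, and Olfr750 (1.97) and Olfr1423 (1.95) with HDL + CpG.

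The highest-scoring receptor peaks were mostly removed. The peak assigned to Vmn1r238 on chromosome 18 had 278 WT and 281 KO tags in unstimulated cells, 300 and 299 with HDL, and 471 and 491 with HDL + CpG. It had the most tags of the set, and each interval of its ratios of 0.988, 1.00 and 0.959 included 1. The HDL + CpG peak was 7803 bp wide, against 2907 and 3179 bp in the other lists, so its higher tags cover more sequence. The peak of Vmn1r2 on chromosome 4, annotated on the satellite GSAT_MM, had 164 and 134, 166 and 144, and 166 and 174 tags, with WT tags nearly constant. Olfr161, at 12 sites over 443 kb of chromosome 16, had 5, 8 and 7 standard peaks, none kept, with median ratios of 1.17, 1.15 and 0.991. Of the 10 receptor peaks with the highest MACS score, the caller's measure of enrichment, 0, 2 and 0 were kept in unstimulated, HDL and HDL + CpG cells, the pair being Olfr806 and Olfr410. At a score of at least 100, 0%, 19.4% and 0% of receptor peaks were kept, beside 9.08%, 63.3% and 8.80% of all standard peaks.

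Several peaks on long terminal repeats had similar WT and KO tags. The Olfr748 site, on an IAP-type LTR element, had 74.3 WT and 82.2 KO tags in unstimulated cells, 70.9 and 76.0 with HDL, and 69.5 and 64.2 with HDL + CpG, so its WT and KO ranges overlapped. Olfr1507 had 14.5 and 17.7, 10.0 and 13.0, and 15.2 and 17.5 tags, with KO tags the higher in each condition and every interval of the ratio including 1. Olfr860 had 13.2 and 13.4, 11.9 and 11.2, and 12.5 and 11.2 tags.

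Promoter annotation was rare and of mixed outcome. Beside Vmn2r29 and Olfr1200, only Olfr433 had a peak called promoter in the standard lists, 0.838 kb upstream with HDL. It had 6.06 WT and 4.69 KO tags (1.29, 0.720 to 2.29), held the AP-1 sequence in fully unique sequence, and was removed.

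Among the receptor peaks with more KO than WT reads, Vmn2r13 had the lowest ratio. The peak in its first intron, on an L1 element, had 14.0 WT and 10.5 KO tags in unstimulated cells, 9.23 and 13.3 with HDL, and 7.48 and 16.0 with HDL + CpG, the last with a ratio of 0.468 (0.307 to 0.701, exact binomial adjusted p = 0.000482). Only the third of these comparisons passed the test. Olfr410 with HDL + CpG, given above, was another, as were Olfr49 (10.5 and 17.1 tags, on an IAP-type LTR element) and Olfr1274-ps (9.50 and 15.4 tags), a pseudogene, in that condition. Vmn1r77 had the lowest ratio in unstimulated cells, with 38.2 and 54.9 tags (0.696, 0.571 to 0.844), and a Vmn2r121 peak the lowest with HDL, with 11.6 and 21.2 tags (0.547, 0.381 to 0.773).

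Of the 171 sites, 58 had a standard peak in all 3 conditions, 33 in 2 and 74 in 1, and 6 had a KOIN-corrected peak alone. A KOIN-corrected peak was present at 30 sites, in 1 condition at 28 and in 2 conditions at 2, and at none in all 3. At the 27 sites outside Vmn2r121 with standard peaks in all 3 conditions, the median WT/KO ratio was 1.14, 1.15 and 0.932, and 1, 11 and 0 sites reached a ratio of 2. With HDL 11 of these sites lay between 2.01 and 3.77, Olfr804 and Olfr1109 were both at 1.92, and 14 lay between 0.693 and 1.15. Olfr951, Olfr1461, Olfr449, Olfr1015, Olfr180 and Olfr243 were among the 11. Their ratios were between 1.06 and 1.91 in unstimulated cells, between 2.01 and 2.79 with HDL, and between 0.803 and 1.13 with HDL + CpG. Olfr1461, for example, had 13.5 WT and 11.8 KO tags, then 19.0 and 6.81, then 16.2 and 17.7, so both libraries changed between conditions. The median share of unique windows was 94.3% at the 11 sites with a ratio of 2 or more and 40.6% at the 16 below 2, and 6 of 11 and 2 of 16 lay on simple repeats or low-complexity sequence.

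**Figure D5:**
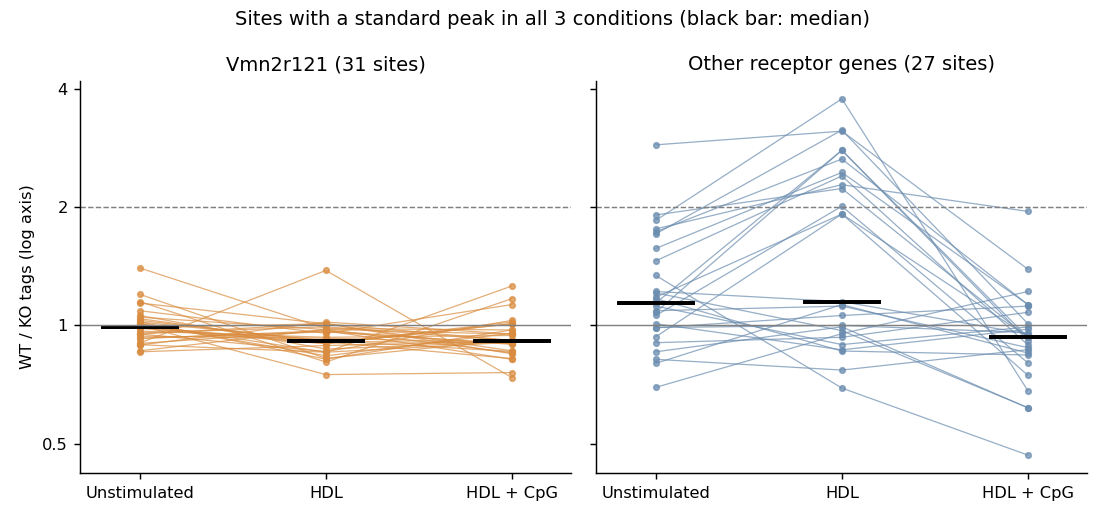
WT/KO ratio (log axis) in the 3 conditions at sites with a standard peak in each, with 1 line per site and a black bar at the median, for Vmn2r121 (31 sites) and the other receptor genes (27 sites). The Vmn2r121 sites stay between 0.737 and 1.4, while 11 of the other sites are at 2 or more with HDL and none with HDL + CpG. Of all 1536 sites shared by the 3 standard lists, which are not drawn, 868 were at 2 or more with HDL and 188 with HDL + CpG.

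Levels at these 27 sites moved in both libraries. The median was 15.8, 20.8 and 18.5 WT tags per kb and 13.8, 18 and 21 KO tags per kb in unstimulated, HDL and HDL + CpG cells. The HDL library was the highest of the 3 WT libraries at 17 of the 27 sites (63%) and the lowest of the 3 KO libraries at 11 (40.7%). Over all 1536 sites shared by the 3 standard lists these shares were 55.3% and 56.2%. KO signal with HDL + CpG was the highest of the 3 KO libraries at 15 of the 27 sites (55.6%, all sites 57.2%).

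The change of the WT/KO ratio between conditions was tested at each shared site by an exact conditional test, adjusted over all shared sites of the series. Between HDL and unstimulated cells it differed at 9 of 67 receptor sites (all sites 23.2%), higher with HDL at 6 of them. Between HDL + CpG and unstimulated cells it differed at 8 of 67 (all 27.9%), lower with HDL + CpG at 7. Between HDL + CpG and HDL it differed at 17 of 74 (all 34.8%), lower with HDL + CpG at 16. Vmn2r121 held 34, 38 and 35 of the receptor sites in the 3 comparisons, and the ratio differed at 2, 0 and 2 of them. Over all sites the corresponding counts were 407 higher of 465, 442 lower of 486 and 768 lower of 829. The comparisons share libraries and are not independent of each other.

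The AP-1 sequence TGACTCA stood within 100 bp of the centre of 1, 3 and 2 receptor standard peaks (1.09%, 2.65% and 1.79%), and of 9.36%, 16.4% and 16.6% of all standard peaks. In windows shifted by 1000 bp it was found in 1.09%, 4.42% and 1.79% of receptor peaks and in 3.02%, 3.14% and 3.06% of all. KOIN-corrected receptor peaks held it in 0 of 4, 2 of 17 and 2 of 11 cases, and all KOIN-corrected peaks in 26.1%, 21.5% and 37.5%. The CRE sequence TGACGTCA, which reads the same on both strands and does not overlap the AP-1 sequence, was in no receptor peak and in 0.252%, 0.696% and 0.660% of all. TGATGCAA, a CEBP:ATF composite sequence, was in 0, 3 and 3 receptor peaks and in 2.27%, 3.03% and 1.95% of all, and stood in the Vmn2r27 peak near Cd163.
Vmn2r27: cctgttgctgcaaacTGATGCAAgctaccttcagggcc
These bases lie on the minus strand at chr6:124206209-124206246, with the sequence searched in capitals. GAGGAAGT, a PU.1-type sequence bound by a master factor of macrophages, was in 3, 2 and 2 receptor peaks and in 2.55%, 4.36% and 3.64% of all. It stood in the HDL promoter peak of Olfr1200.
Olfr1200: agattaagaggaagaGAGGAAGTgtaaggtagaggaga
These bases lie on the minus strand at chr2:88609016-88609053, again with the sequence searched in capitals. All sequences were searched on both strands, and a match is a description of the letters.

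Lists of related genes were set beside the receptors, and their kept counts stand against 20.7%, 54.9% and 29.7% of all standard peaks in unstimulated, HDL and HDL + CpG cells. Other chemosensory receptor genes (taste, trace amine, vomeronasal formyl peptide and H2-M10 genes) had 3, 7 and 6 standard peaks, of which 1, 2 and 2 were kept. The peak with the most tags, 22.5 kb from H2-M10.4, had 138 WT and 170 KO tags in unstimulated cells, 144 and 155 with HDL, and 137 and 141 with HDL + CpG, so its KO tags were above its WT tags in each. The peak in the promoter of Tas2r134, a bitter taste receptor gene, lay 0.721 kb upstream in unstimulated cells. It had 86.7 WT and 52.8 KO tags in that condition, 107 and 26.3 with HDL, and 70.5 and 69.9 with HDL + CpG, which gave ratios of 1.64, 4.06 and 1.01, and it was removed in all 3. Of 25 genes of signal transduction in olfactory and vomeronasal neurons, 3 had peaks, and 1 of 5, 1 of 4 and 0 of 4 peaks were kept. The kept ones lay 126 kb from the start of Ano2, a calcium-activated chloride channel gene, with 12.4 WT and 5.56 KO tags in unstimulated cells (2.23) and 10.6 and 4.09 with HDL (2.58). Gnal, the G protein of olfactory receptors, had 2 peaks per condition, at ratios between 0.753 and 1.51. Of 15 genes that mark olfactory or vomeronasal neurons, a list that shares members with the last, 1 of 5, 2 of 6 and 0 of 5 peaks were kept. Other clustered gene families of restricted tissues had 13, 17 and 18 peaks, of which 0, 5 and 0 were kept.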

How the data were processed

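Reads of the 3 pooled biological replicates per genotype and condition were aligned by the authors to mm9 with Bowtie (0.12.8 per the processing notes), peaks were called with MACS (1.4.2) and annotated with HOMER (4.3). The deposited tag signal of each peak is normalised to 10000000 reads, and the deposited peak score is the MACS score. Standard peaks used the WT library alone. KOIN-corrected peaks used WT against KO, without peaks shared with those called on the KO library, and with a ratio of at least 2.

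Whole reads were recovered from tags and the library totals in the headers, since every tag value matched an integer read number to within 0.005 tags. WT/KO ratios received exact 95% intervals and two-sided exact binomial tests with Benjamini-Hochberg adjustment over all standard peaks of a condition (Python 3.11.15, scipy 1.17.1), after the test had been checked on simulated data. Changes of the ratio between conditions used an exact conditional test (Fisher's noncentral hypergeometric distribution, with the library totals as odds). Unique 51-base windows, motifs and printed sequences came from the NCBIM37 (mm9) reference genome with GENCODE annotation.

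Members, lists and named peaks were chosen with earlier results of these data known. Named were the KOIN-corrected peaks, the 10 highest scores, peaks near or within receptor genes, shared sites, and those next to a ratio of 2, with up to 30 printed per condition. Alternatives covered the MACS score, repeats, distance, chromosomes, gene families, unique windows, overlap, pseudocount, adjusted p, and, chosen after seeing the data, the removal of Vmn2r121 and of satellite reads.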

Additional observations from a re-analysis of the deposited data

Results flagged for a closer look

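The WT/KO ratio differed between conditions, by the exact test on the reads of both libraries adjusted over all shared sites, at the receptor sites listed here. Each value is the WT/KO ratio of the first condition divided by that of the other. Libraries were pooled and not replicated, so the test covers counting error alone, and 23.2%, 27.9% and 34.8% of all shared sites passed it in the 3 comparisons.

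With HDL against unstimulated cells the ratio was higher at Olfr806 (1.84), Olfr410 (2.04), Olfr1461 (2.44), Vmn2r77 (1.53), Olfr497 (2.84) and Olfr951 (2.58). It was lower at Olfr161 (0.735) and at a pair of Vmn2r121 sites (0.813 and 0.806).

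With HDL + CpG against unstimulated cells it was lower at Olfr806 (0.590), Olfr410 (0.369), Olfr161 (0.718), Vmn1r2 (0.779), Vmn2r13 (0.349), Vmn2r77 (0.652) and Olfr243 (0.488). Vmn1r77 was the only receptor site that passed the test with a higher ratio in this comparison (1.75).

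With HDL + CpG against HDL it was lower at Olfr410 (0.181), Olfr677 (0.295), Olfr806 (0.321), Olfr1461 (0.328), Olfr951 (0.334), Olfr1015 (0.371), Olfr804 (0.388), Olfr449 (0.400) and Olfr166 (0.410). It was also lower at Olfr243 (0.419), Vmn2r77 (0.426), Vmn2r29 (0.446), Olfr180 (0.460), Olfr161 (0.566), Vmn1r2 (0.828) and 1 Vmn2r121 site (0.536), and it was higher at another Vmn2r121 site (1.47).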

How the results depend on the processing

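No paired analysis was possible because every comparison of WT with KO was made within 1 condition, where each genotype had 1 pooled library. Leaving out a replicate could not be done for the same reason. Of 141 alternative values, 52 stayed near the value reported, 83 moved, and 6 medians left their interval and crossed 1. Near meant inside the interval for the receptor share of standard peaks and for the median ratio. For the other shares it meant within a fixed fold of the value reported. In all 129 settings with a value for all peaks, the receptor value was below it. Pooling, the depth of the libraries and the few kept peaks limit the precision of every share. Values below are in the order unstimulated, HDL, HDL + CpG unless conditions are named, and the cause of each move was not tested.

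The receptor share of standard peaks became 1.72%, 1.33% and 1.58% without Vmn2r121, 1.83%, 1.38% and 1.67% on autosomes, 2.43%, 1.64% and 2.10% within 100 kb, 1.22%, 0.902% and 1.03% for Olfr alone, and 0.970%, 0.667% and 0.796% with at least 90% unique windows. It was 4.05% in unstimulated cells without satellite, simple and low-complexity repeats, 3.33% with HDL at a score of at least 100. For HDL + CpG it was 3.85% at a score of at least 60 and 4.25% at 100.

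The kept share became 8.51%, 22.9% and 10.2% without Vmn2r121 and the same on autosomes, 9.09%, 25% and 8.93% within 100 kb, and 14.3%, 30.4% and 16.7% with unique windows. For Olfr alone it was 8.82% in unstimulated cells and 22.9% with HDL. It was 7.06% with HDL without these repeats, 0% in unstimulated and HDL + CpG cells at a score of at least 100, and 3.08% with HDL + CpG at 60.

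The share at a ratio of 2 became 10.6%, 40.0% and 11.9% without Vmn2r121 and the same on autosomes, 11.4%, 43.8% and 10.7% within 100 kb, and 21.4%, 65.2% and 16.7% with unique windows. For Olfr alone it was 11.8% in unstimulated cells and 43.8% with HDL, and without repeats 14.1% with HDL. At a score of at least 60 it was 3.85% in unstimulated cells, and at 100 it was 0% there and with HDL + CpG.

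The median ratio became 1.34, 1.81 and 1.12 without Vmn2r121 and the same on autosomes, 1.28, 1.85 and 1.09 within 100 kb, and 1.72, 2.45 and 1.13 with unique windows. For Olfr alone it was 1.21 in unstimulated cells and 1.86 with HDL. With HDL + CpG it was also above 1, at 1.02 and within the interval, for Olfr alone and without the repeats. At a score of at least 100 it was 1.00 in unstimulated cells and 0.963 with HDL, and at 60 it was 0.980 with HDL.

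The share with more WT reads became 36.2%, 54.3% and 22% without Vmn2r121 and the same on autosomes, and 64.3%, 73.9% and 33.3% with unique windows. Within 100 kb it was 57.8% with HDL and 21.4% with HDL + CpG, for Olfr alone 38.2% in unstimulated cells and 52.1% with HDL, and without repeats 22.4% with HDL. With HDL + CpG at a score of at least 100 it was 6.90%. At an adjusted p of 0.01 it was 14.1% in unstimulated cells and 8.04% with HDL + CpG.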
